A study of Mus musculus with 6 samples.

Results

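Glutamate is the main excitatory transmitter of the cerebral cortex, and the genes described here encode receptors for it: Gria1, Gria2, Gria3 and Gria4 (AMPA receptor subunits), Grin1, Grin2a and Grin2b (NMDA receptor subunits), Grik2 and Grik5 (kainate receptor subunits) and Grm5 (a metabotropic receptor). They were taken by gene symbol from the deposited table of expected counts, where all 10 were found among 24041 genes. The libraries come from mouse cerebral cortices. One group (3 libraries) had been electroporated with plasmids for green fluorescent protein (GFP) and wild-type PRPF6, the other (3 libraries) with plasmids for GFP and mutant PRPF6, and GFP-positive cells were sorted before RNA isolation. Both groups were thus given GFP and a form of PRPF6, a splicing factor found in the U4/U6.U5 tri-snRNP, and no group went without a PRPF6 plasmid. The sources used here do not give the mutation, the plasmids' promoter, the mouse strain or the age of the animals.

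AMPA and kainate receptors are ion channels that open within milliseconds of glutamate binding and carry the fast excitatory current. NMDA receptors need Grin1 together with Grin2 subunits, pass calcium, and open fully only when the membrane is already depolarised. Grm5 acts through G proteins and phospholipase C. In the cortex, Grin2b is known as the Grin2 subunit of the immature brain and Grin2a as one that comes up after birth, and glutamate receptors are also present on migrating neurons and on some progenitors before synapses form.

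The receptor subunits are related in sequence, which matters for a count per gene. The longest stretch of codons with the same translation in all 9 ionotropic members was 9 codons, or 27 bases, in GENCODE M21 transcripts (build GRCm38); each lies in 1 exon. The stretches of 8 of them are shown to let the relation be seen base by base, with capitals for bases that differ from Gria2:
Gria2, chr3:80702569-80702595, minus strand: tcctacacggctaacttagctgccttc
Gria1, chr11:57283571-57283597, plus strand: tcAtacacAgcCaacCtGgctgccttc
Gria3, chrX:41620858-41620884, plus strand: tcctacacTgcAaacCtTgctgcTttc
Gria4, chr9:4462017-4462043, minus strand: tcctacacTgctaaTCtGgctgcAttc
Grin1, chr2:25297199-25297225, minus strand: tcctacacTgcCaacCtGgcAgccttc
Grin2a, chr16:9653447-9653473, minus strand: AGTtacacAgcCaacCtGgctgccttc
Grik2, chr10:49240690-49240716, minus strand: tcGtaTacCgctaacCtagcCgccttT
Grik5, chr7:25015919-25015945, minus strand: tcctacacggcCaacCtGgctgccttc

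In this stretch, chosen by its shared translation, the genes differed from Gria2 at 3 (Grik5) to 7 (Grin2a) of 27 bases. Over whole protein-coding transcripts, the longest run of identical bases shared by any of the 45 pairs of members was 57 (Gria3 and Gria4), followed by 56 (Gria2 and Gria3). That is shorter than a single 150-base read, so 0 pairs shared a run as long as a read in these transcripts. Transcripts of other types were not searched. In the deposited table, Gria2, Gria3 and Gria4 each had 1 library with a fractional value and Grin1 had 3; fractions arise where reads fit more than 1 feature. The other 6 members had whole values in all 6 libraries.

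Gria2 RNA is known for editing at the codon of the channel pore where the genome encodes glutamine and the edited RNA is read as arginine, which makes AMPA receptors with this subunit nearly impermeable to calcium. The codon and its flanks in the AMPA genes are shown with the codon in capitals, since only Gria2 is edited there:
Gria2, chr3:80706899-80706925, minus strand: ggtgcctttatgCAGcaaggatgcgat
Gria1, chr11:57243082-57243108, plus strand: ggggccttcatgCAGcaaggatgtgac
Gria3, chrX:41610253-41610279, plus strand: ggtgcttttatgCAGcaaggatgtgat
Gria4, chr9:4464125-4464151, minus strand: ggtgcctttatgCAAcaaggatgtgac

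Counts per gene do not show which base was present at this codon, nor which splice forms of the subunits were made.

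The libraries held 45115122 to 60600617 expected counts, so that 1 count was worth 0.0164 to 0.0228 CPM (counts scaled to a common depth). Prpf6 itself had a mean of 141 ± 22.6 CPM in the wild-type and 134 ± 10.01 CPM in the mutant group (SD, n = 3). Whether RNA from the plasmids is part of these counts was not tested. Values listed per library follow the replicate numbers 1, 2 and 3. Excitatory neuron and radial glia markers were detected in every library, as the labelled tissue has them. Some libraries stood apart in markers of other cells: wild-type replicate 3 had the highest summed level of red blood cell markers (17152 CPM, against 81.9 to 2873 CPM elsewhere) and meningeal fibroblast markers (1632 CPM, against 11.9 to 161 CPM). Mutant replicate 1 had the lowest sum of excitatory neuron markers (1462 CPM, against 2111 to 4191 CPM). Wild-type replicate 1 had the lowest sum of interneuron markers (172 CPM, against 333 to 1006 CPM). Separate animals are not named in the labels, so a p-value measures only the spread among these libraries, part of which may be technical.

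Across the receptors, the fitted level was lower with mutant PRPF6 for 8 of 10 genes, but no gene passed the test and no gene separated the groups. All 10 passed the filter on low counts. The median log2 difference was −0.53, beside a median of −0.0013 over all 14451 tested genes. With edgeR's quasi-likelihood test and Benjamini-Hochberg adjustment over all tested genes, 0 members were called, where 0.00% of all tested genes were (lowest adjusted p over all genes = 1.00). At an unadjusted p under 0.05 stood 1 member, Gria2, as lower; the share of all tested genes that was lower at this level was 1.20%, with 2.18% higher and 3.38% (489 genes) in either direction. These counts moved with single libraries: leaving out mutant replicate 2 gave 1016 genes, 642 of them lower, against 174 lower with all libraries. The count of members at this level was 0 when wild-type replicate 1, mutant replicate 1 or mutant replicate 3 was left out, 0 when wild-type replicate 3 and mutant replicate 1 were both left out, and 0 with the replicate number as a block. It was 3 when mutant replicate 2 was left out and 2 with limma-voom. All genes at this level were 1016 of 14807 tested without mutant replicate 2 and 558 of 14451 with limma-voom. Without wild-type replicate 1, mutant replicate 1 or mutant replicate 3 they were 406 of 15177, 383 of 15116 and 531 of 15160. With wild-type replicate 3 and mutant replicate 1 both left out they were 362 of 14469, and with the block 307 of 14451. DESeq2 called 12 genes (0.0714% of those it gave an adjusted p) and limma-voom 0 (0.00%, with 558 at an unadjusted p under 0.05), in neither case a member. In 0 of 10 members did the whole mutant group lie below the whole wild-type group, where 4.54% of all tested genes did, and in 0 did they lie above (4.60%). A fitted difference below 0 was found for 50.2% of all tested genes. Leaving out mutant replicate 3 gave a median of −0.16 for the members, leaving out mutant replicate 2 gave −0.84, and leaving out wild-type replicate 3 gave −0.31 (−0.32 when mutant replicate 1 was dropped with it).

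**Figure D1:**
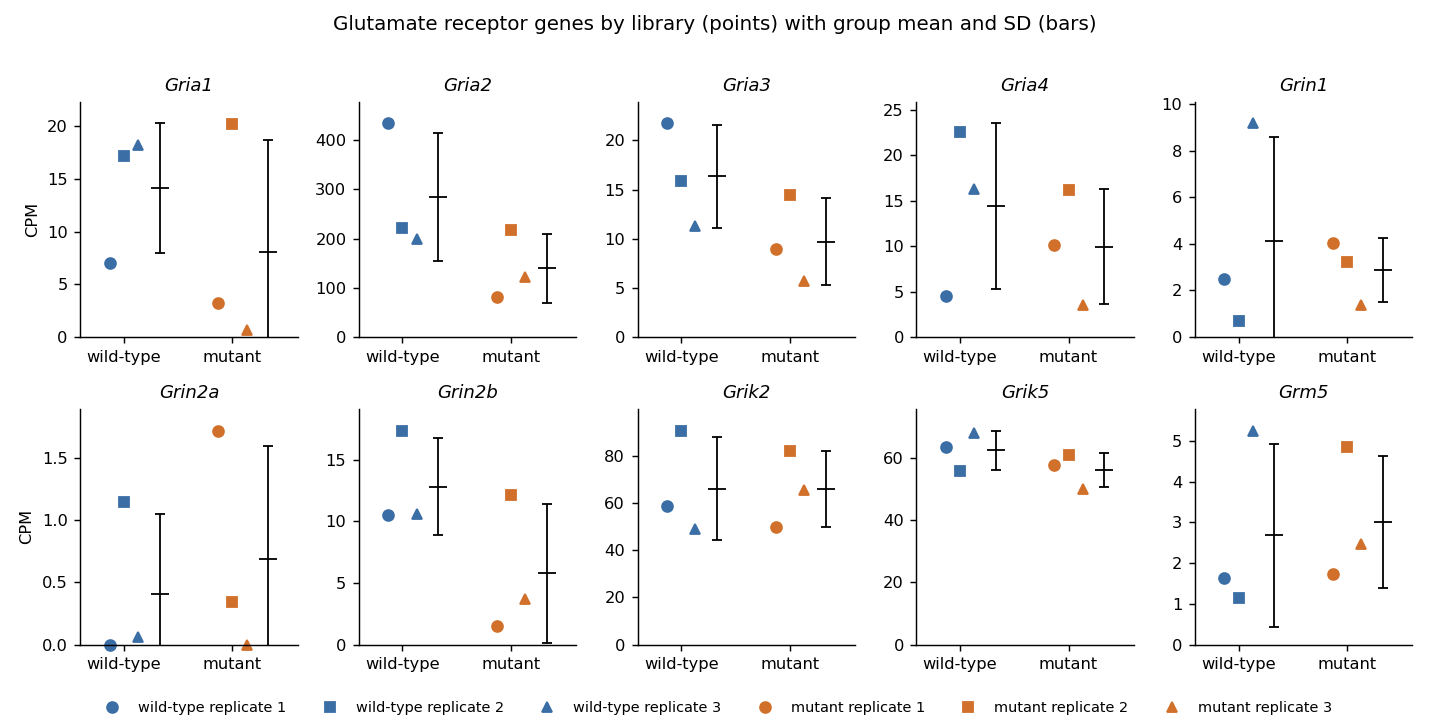
Level of each receptor gene in CPM (vertical axis, linear, from 0) in the 3 wild-type (blue) and 3 mutant (orange) PRPF6 libraries, with symbols for replicates and black bars for the group mean ± SD, whose lower end is off the axis where it would pass below 0. The groups overlap for all 10 genes, and mutant replicate 2 (orange squares) is the highest mutant library for Gria1, Gria2, Gria3, Gria4, Grin2b, Grik2, Grik5 and Grm5.

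The AMPA receptor genes come first. Gria2 (ENSMUSG00000033981.14, chromosome 3, 80681450 to 80802835, minus strand) encodes the subunit that limits calcium entry. Its level was 435, 221 and 200 CPM in the wild-type libraries, against 80.8, 218 and 121 CPM in the mutant ones. Mutant replicates 1 and 3 lay below every wild-type library, while mutant replicate 2 lay above wild-type replicate 3. The group means of Gria2 were 285 ± 130 CPM for wild-type and 140 ± 70.2 CPM for mutant PRPF6 (SD, n = 3), a log2 difference of −1.03 ± 0.41 (SE; edgeR, unadjusted p = 0.0367, adjusted p = 1.00). Without wild-type replicate 1, the highest library, the log2 difference was −0.59, and without mutant replicate 2 it was −1.50 (edgeR adjusted p = 0.614). The unadjusted p from edgeR was 0.166 with wild-type replicate 1 left out, 0.0997 with mutant replicate 1 left out and 0.101 with mutant replicate 3 left out. Over all alternatives run, the adjusted p ran from 0.614 to 1.00.

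Gria1 (chromosome 11, 57011387 to 57330244, plus strand), a subunit with a long cytoplasmic tail known from synaptic plasticity, stood at 7.003, 17.2 and 18.2 CPM in the wild-type libraries. In the mutant libraries it stood at 3.25, 20.2 and 0.684 CPM. The highest and the lowest library were both mutant ones, and the log2 difference of −0.81 ± 1.03 (SE) was smaller than its error. It was −2.84 without mutant replicate 2 and −0.27 without mutant replicate 3.

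Gria3, an X-linked AMPA subunit gene (chromosome X, 41400854 to 41678601, plus strand), had 21.8, 15.9 and 11.3 CPM in the wild-type libraries. The mutant libraries had 8.95, 14.4 and 5.68 CPM. As for Gria2, only mutant replicate 2 reached into the wild-type range, and the log2 difference was −0.75 ± 0.46 (SE; edgeR adjusted p = 1.00). Gria4 (chromosome 9, 4417896 to 4796234, minus strand), a subunit with fast kinetics, had 4.55, 22.5 and 16.3 CPM in the wild-type libraries and 10.2, 16.2 and 3.54 CPM in the mutant libraries. Here the library lowest among the wild-type ones was replicate 1, the same library that was highest for Gria2 and Gria3. The log2 difference of Gria4 was −0.54 ± 0.71 (SE).

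**Figure D2:**
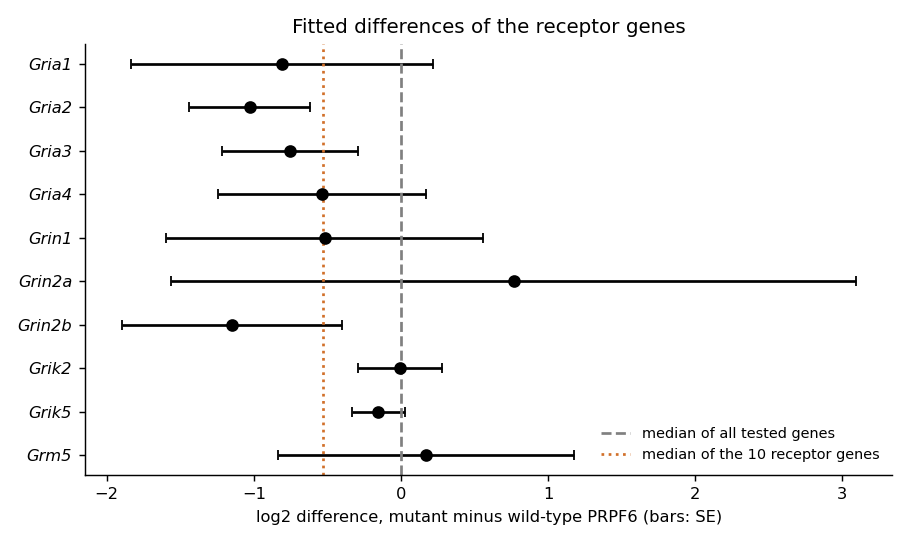
Fitted log2 difference of each receptor gene, mutant minus wild-type PRPF6 (horizontal axis), with its standard error as a bar, the median of all tested genes (dashed) and of the 10 members (dotted, −0.53). Grik2 and Grik5 lie closest to 0 with the shortest bars, and Grin2a, at 0.77 ± 2.33, has the longest.

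The kainate receptor genes were the most even of the members. Grik5 (ENSMUSG00000003378.9, chromosome 7, 25009849 to 25072346, minus strand) encodes a high-affinity subunit that forms channels only together with others such as Grik2. Wild-type libraries held 63.7, 55.8 and 68.2 CPM of it and mutant libraries 57.7, 60.9 and 50.1 CPM. The groups overlapped closely, at means of 62.6 ± 6.28 and 56.2 ± 5.56 CPM (SD, n = 3), and the log2 difference was −0.15 ± 0.18 (SE; edgeR adjusted p = 1.00). Grik2 (chromosome 10, 49094833 to 49788766, minus strand), a pore-forming subunit, had 58.7, 90.6 and 48.8 CPM in the wild-type and 49.9, 82.0 and 65.6 CPM in the mutant libraries. Its high library was replicate 2 in both groups, and the log2 difference was −0.0049 ± 0.28 (SE). Its sign turned without wild-type replicate 2 (0.29) or mutant replicate 1 (0.16).

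Among the NMDA receptor genes, Grin2b (ENSMUSG00000030209.14, chromosome 6, 135713233 to 136173511, minus strand) had the largest fitted difference below 0 of any member. Its levels were 10.5, 17.4 and 10.6 CPM in the wild-type libraries, against 1.52, 12.1 and 3.67 CPM in the mutant ones. Mutant replicates 1 and 3 lay below all wild-type libraries and mutant replicate 2 lay above wild-type replicates 1 and 3. The log2 difference was −1.15 ± 0.75 (SE; edgeR adjusted p = 1.00), and it ran from −2.31 without mutant replicate 2 to −0.70 without mutant replicate 1. Grin1 (chromosome 2, 25291181 to 25319187, minus strand), the subunit that every NMDA receptor contains, was low: 2.51, 0.673 and 9.19 CPM in the wild-type libraries and 4.03, 3.23 and 1.37 CPM in the mutant ones. Both the highest and the lowest library were wild-type ones. The log2 difference of Grin1 was −0.52 ± 1.08 (SE), and without wild-type replicate 3 it turned to 0.86. In the annotation 1307 of its 9700 exon bases overlap Grin1os, an antisense gene on the plus strand, and without a known strand setting their reads cannot be told apart.

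Grin2a (chromosome 16, 9567898 to 9995560, minus strand) was close to the limit of detection. It had 0 counts in wild-type replicate 1 and in mutant replicate 3, which allows levels of up to 0.0644 and 0.0684 CPM (3 counts in that library; counting error only). The other libraries held 1.15 and 0.0600 CPM (wild-type replicates 2 and 3) and 1.72 and 0.342 CPM (mutant replicates 1 and 2). The fitted log2 difference of 0.77 ± 2.33 (SE) is therefore not informative at this depth, and without mutant replicate 1 it was −1.23. Grm5 (chromosome 7, 87584168 to 88134907, plus strand), the metabotropic receptor, had 1.63, 1.15 and 5.26 CPM in the wild-type libraries and 1.74, 4.84 and 2.46 CPM in the mutant ones. Each group had 1 library well above its others, and the log2 difference was 0.17 ± 1.01 (SE). It turned below 0 without wild-type replicate 1 (−0.085), wild-type replicate 2 (−0.20) or mutant replicate 2 (−0.35). Leaving out wild-type replicate 3 gave 1.12.

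To compare the genes with one another, levels were divided by the merged exon length of each gene in GENCODE M21. Gria2 and Grik5 were the highest, with means over the 6 libraries of 13.7 and 11.5 CPM per kilobase. They exchanged places between libraries: Gria2 was above Grik5 in 3 of 6. With wild-type PRPF6 Gria2 stood at 18.4 ± 8.37 and Grik5 at 12.1 ± 1.21 CPM per kilobase. With mutant PRPF6 the values were 9.002 ± 4.52 and 10.9 ± 1.08 CPM per kilobase (SD, n = 3). Grik2 came next at 4.98 CPM per kilobase, below Grik5 and above Gria4 in every library. Gria4 (1.94), Gria1 (1.84) and Gria3 (1.32 CPM per kilobase) changed order between libraries. Grin2b (0.374), Grin1 (0.361) and Grm5 (0.278 CPM per kilobase) also overlapped, and Grin2a was last at 0.0304 CPM per kilobase. The length of the longest transcript in place of merged exons left Gria2, Grik5 and Grik2 as the top 3 in that order. Below them it changed the order: Grin1 was then at 0.819 CPM per kilobase, above Grin2b at 0.387, and Gria3 at 2.499, above Gria4 at 2.24 and Gria1.

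**Figure D3:**
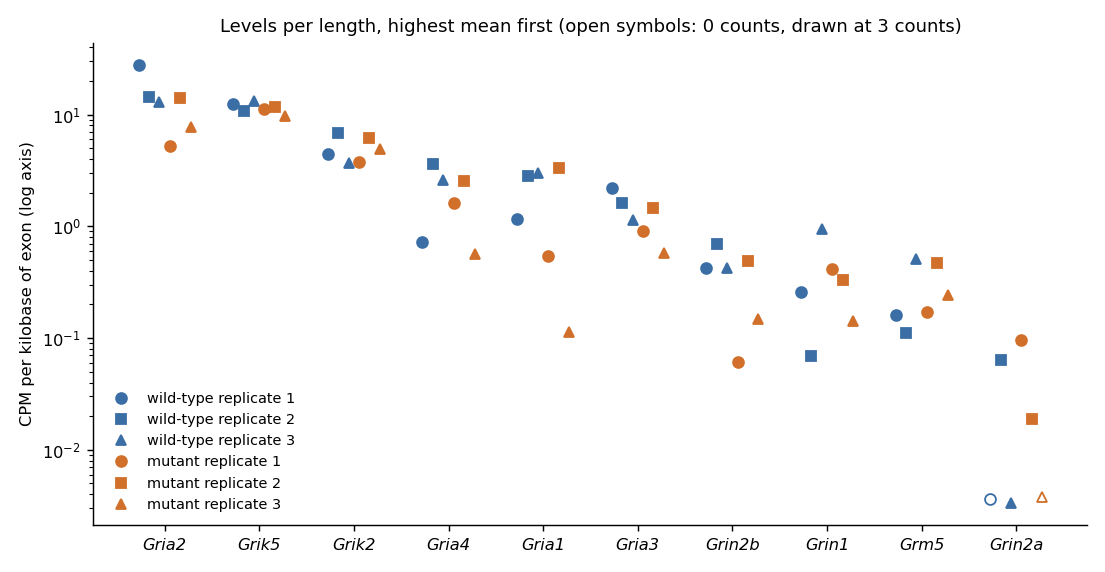
Level of each receptor gene per kilobase of exon (vertical log axis, CPM per kilobase) in each library, ordered by the mean over the 6 libraries, with open symbols for libraries with 0 counts, drawn at the level of 3 counts. Gria2 and Grik5 share the top, while Grin1, Grin2a, Grin2b and Grm5 stay below 1 CPM per kilobase of merged exons in all 6 libraries (per longest transcript, Grin1 was at 2.15 in wild-type replicate 3).

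The makeup of each receptor class was also taken per kilobase. Gria2 made up 87.2%, 63.9% and 65.6% of the 4 AMPA genes in the wild-type libraries, against 63.0%, 65.5% and 86.2% in the mutant ones. Means were 72.3% ± 13.01 and 71.5% ± 12.8 (SD, n = 3), and each group had 1 library far above its others. Grik5 was 71.0% ± 8.76 of Grik2 and Grik5 together with wild-type and 68.8% ± 5.16 with mutant PRPF6. Grin2b was 91.6% and 99.2% of Grin2a and Grin2b in wild-type replicates 2 and 3 and 96.2% in mutant replicate 2, and the whole of it in the 2 libraries without a Grin2a count. In mutant replicate 1, where both genes were under 2 CPM, it was 38.8%.

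By library, mutant replicate 3 was the lowest of the 6 for 5 of 10 members (Gria1, Gria3, Gria4, Grin2a at 0 counts as in wild-type replicate 1, and Grik5) and the highest for 0. Mutant replicate 1 was the lowest for Gria2 and Grin2b. Mutant replicate 2 was the lowest for no member and, averaged over the members, had the highest centred log2 CPM, 0.60, where mutant replicates 1 and 3 had −0.21 and −1.10 and the wild-type libraries −0.16, 0.43 and 0.43. The group means of this value, 0.24 ± 0.34 for wild-type and −0.24 ± 0.85 for mutant PRPF6 (SD, n = 3), lay closer together than 1 SD of the mutant libraries.

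Markers of excitatory neurons, which carry glutamate receptors, were set beside the member values. The list also holds Tubb3, Dcx, Rbfox3 and Mapt, genes of neurons in general, so it is not of excitatory neurons alone. Its genes differed: in mutant replicate 1 Tubb3 was at 728 CPM, above wild-type replicates 1 and 2 (544 and 590 CPM). Neurod6 was at 57.5 CPM there, against 583 to 1276 CPM elsewhere. All 10 tested markers had a fitted level below wild-type, with a median log2 difference of −0.77, and 2 of them, Bcl11b and Tbr1, had an unadjusted p under 0.05 (edgeR, 0 called). Their summed level was 2857 to 4191 CPM with wild-type and 1462 to 3015 CPM with mutant PRPF6. Their mean centred log2 CPM was highest in wild-type replicate 1 (0.75) and lowest in mutant replicates 1 (−1.21) and 3 (−0.46), the same libraries as for Gria2 (1.23, −1.20 and −0.61). Not every member followed this list: Gria4 was at −1.12 in wild-type replicate 1 and at 0.03 in mutant replicate 1, and the mean over the members was highest in mutant replicate 2. Interneuron markers had a mean centred log2 CPM of −1.74, 0.21 and 1.20 in the wild-type and 0.97, 0.03 and −0.67 in the mutant libraries. Gria4 was at −1.12, 1.17 and 0.71 in the wild-type and 0.03, 0.70 and −1.48 in the mutant libraries. Radial glia markers, of stem cells, had fitted levels above wild-type in 10 of 10 (median 0.57; summed 1917 to 2694 CPM against 2609 to 4681 CPM). Of these, 5 had an unadjusted p under 0.05 (edgeR, 0 called) and 2 lay above without overlap between the groups. Over all tested genes, 2.18% were higher and 1.20% lower at this unadjusted p, and 4.60% lay above without overlap. In sorted bulk cells, fewer cells of a type and less RNA per cell cannot be told apart. What part these marker levels have in the receptor values was not tested.

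**Figure D4:**
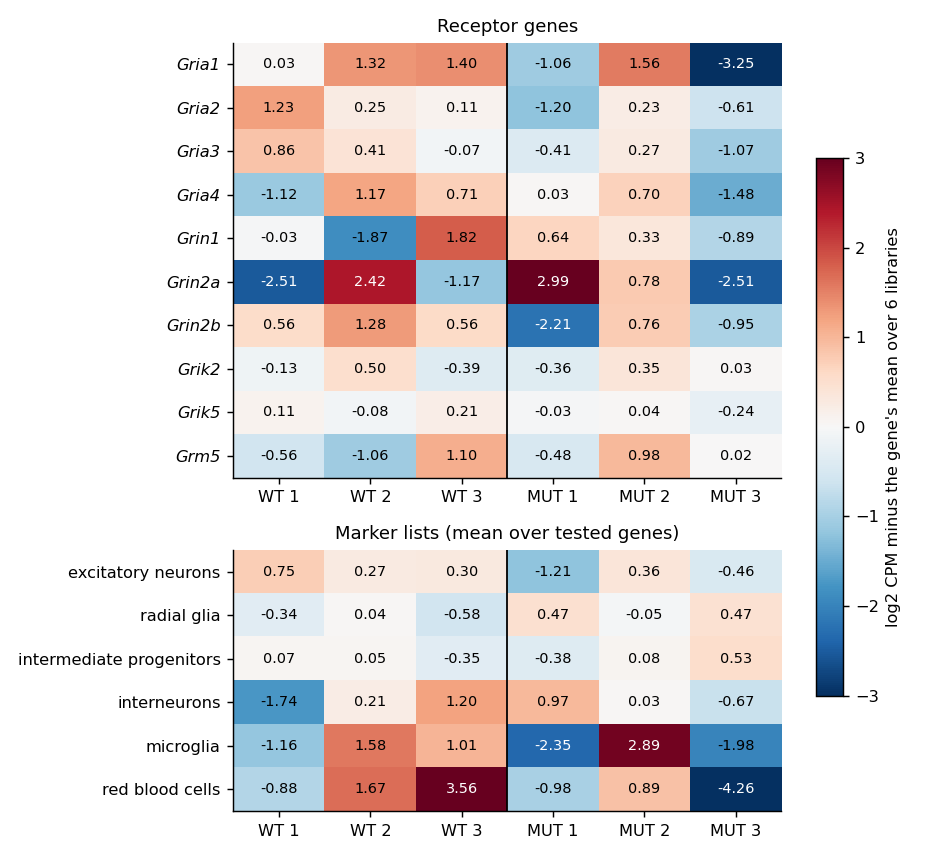
Centred log2 CPM (colour and printed value; the gene's mean over the 6 libraries is 0, and colours end at 3 and −3) of the receptor genes (top) and of the mean of each marker list (bottom) in the wild-type (WT) and mutant (MUT) PRPF6 libraries. Gria2 is highest in wild-type replicate 1 and lowest in mutant replicate 1, as is the excitatory neuron list. Gria1 is low where the microglia and red blood cell lists are low in the mutant libraries.

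For the 6 members with a mean of at least 10 CPM, the genes with the most similar pattern were found among 9971 other genes, by the root mean square difference of centred log2 CPM over the 6 libraries. For Gria2 they were Herc3 (0.168), a ubiquitin ligase gene, and Lrrc7 (0.175), which encodes densin, a protein of the postsynaptic density. Lrrc7 had 59.3, 27.1 and 29.8 CPM in the wild-type libraries and 9.33, 22.0 and 15.1 CPM in the mutant ones. For Gria3 they were Lrrtm4 (0.0787), a synaptic adhesion gene, and Pygo1 (0.102), of the Wnt pathway. The kainate genes had Vgll4, a transcription cofactor gene, and Cep192, a centrosome gene, for Grik2 (0.0595 and 0.0720), and Ptpn11, a phosphatase gene, and Add1, of the membrane skeleton, for Grik5 (0.0337 and 0.0523). Gria4 had As3mt and Mpp1 (0.315 and 0.331). The SD of the member's own centred log2 CPM was 0.156 for Grik5, 0.368 for Grik2 and 0.679 for Gria3. For Gria2, Gria4 and Gria1 it was 0.830, 1.08 and 1.89. A member that varies little has small differences, so their sizes are not comparable between members. The genes named are the nearest of many over only 6 libraries and are given as a description.

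Gria1 had as its nearest patterns Emr1 (0.424) and C1qa (0.646), genes of macrophages and microglia. Emr1 had 5.67, 22.3 and 19.0 CPM in the wild-type libraries and 2.75, 38.7 and 0.639 CPM in the mutant ones. All 7 microglia markers were tested, and their summed level was 80.0, 245 and 169 CPM in the wild-type libraries and 20.7, 647 and 29.5 CPM in the mutant ones. Gria1 (7.003, 17.2, 18.2, 3.25, 20.2 and 0.684 CPM in the same order) and these markers were thus high in wild-type replicates 2 and 3 and mutant replicate 2, and low in mutant replicates 1 and 3. This was not particular to microglia markers. In those libraries, in that order, the mean centred log2 CPM of red blood cell markers was 1.67, 3.56, 0.89, −0.98 and −4.26. For meningeal fibroblast markers it was 0.30, 4.17, 0.85, −2.81 and −2.47. The libraries were sorted for GFP, a step meant to keep electroporated cells only, and the microglia markers were still above 0 in every library. Whether RNA of microglia or of these other cells has a part in the Gria1 counts was not tested.

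**Figure D5:**
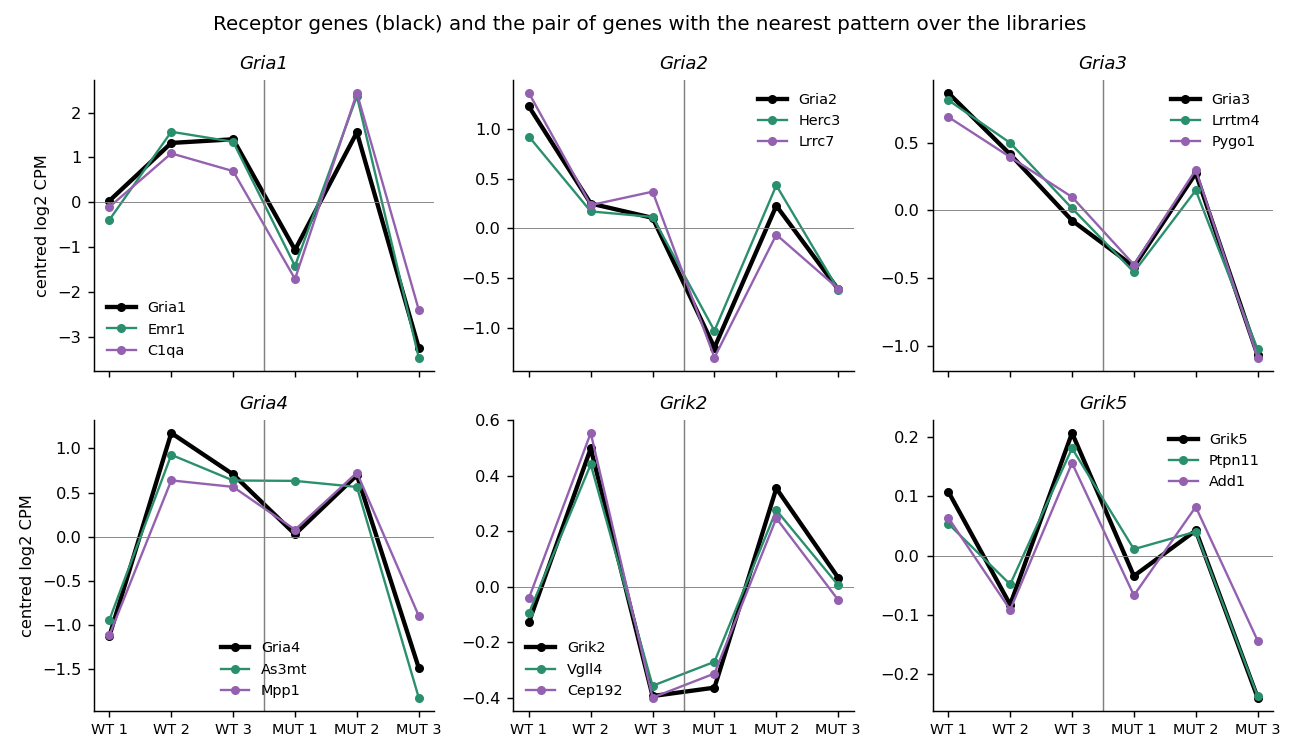
Centred log2 CPM (vertical axis) of 6 receptor genes (black) and, for each, the pair of genes with the nearest pattern (green, purple) in the wild-type (WT) and mutant (MUT) PRPF6 libraries; lines only join the points of a gene, since libraries have no order. Gria1 lies beside Emr1 and C1qa, and the axis of Grik5 spans less than 0.5 while that of Gria1 spans over 4.

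The other glutamate receptor genes, 14 of 16 of which were tested, had 4 fitted differences above and 10 below 0 (median −0.22), with 0 called. Grm3, a metabotropic receptor that lowers cyclic AMP, had 1.53, 4.74 and 2.64 CPM in the wild-type libraries and 40.9, 6.13 and 10.5 CPM in the mutant ones. The mutant libraries were all above the wild-type ones, and the log2 difference was 2.69 ± 0.80 (SE; edgeR unadjusted p = 0.00992, adjusted p = 1.00). Grik4, the other high-affinity kainate subunit besides Grik5, also separated the groups, at 0.816, 1.48 and 2.22 CPM against 8.68, 6.31 and 3.17 CPM (log2 difference 2.01 ± 0.85, SE; adjusted p = 1.00). Over all tested genes, 4.60% lay above without overlap. Of the 5 astrocyte markers, Aldh1l1 was, like Grm3, highest in mutant replicate 1, with 73.9 CPM against 1.25 to 15.2 CPM elsewhere. The others did not peak there: in that library Aqp4 and Gfap were at 0, S100b was at 0.344 CPM (0.720 CPM in wild-type replicate 3) and Aldoc at 87.9 CPM (64.3 to 210 CPM elsewhere). The sum over all 5 was 69.8 to 184 CPM with wild-type and 162 to 216 CPM with mutant PRPF6, with mutant replicate 1 at 162 CPM. Aldoc was the largest part of this sum in every library. The mean centred log2 CPM of the 3 tested astrocyte markers was highest in mutant replicate 1 (1.48, against −1.37 to 0.19 elsewhere). This was not particular to astrocyte markers. Oligodendrocyte precursor markers were also highest in mutant replicate 1 (1.67, against −1.95 to 1.21 elsewhere). Radial glia markers were at 0.47 in both mutant replicates 1 and 3, against −0.58 to 0.04 elsewhere. The part of any of these lists in the Grm3 values was not tested. Grm4, a presynaptic metabotropic receptor, had means of 5.89 ± 4.66 and 2.25 ± 1.56 CPM (SD, n = 3, with wild-type first here and below).

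Of the auxiliary subunits that carry AMPA and kainate receptors to the surface and set their kinetics, 15 of 16 were found and tested, 6 above and 9 below 0 (median −0.21, 0 called). Cnih2, a cornichon protein of AMPA receptors, was at 139 ± 42.7 and 102 ± 23.1 CPM, and Cacng4, a TARP, at 44.4 ± 21.4 and 31.2 ± 4.57 CPM. Gsg1l, another AMPA receptor companion, was at 3.98 ± 2.93 and 9.14 ± 4.28 CPM. Postsynaptic scaffold and kinase genes had 8 of 24 above and 16 below 0 (median −0.19, 0 called). Camk2g, a calcium-dependent kinase, had 14.1, 17.0 and 11.9 CPM in the wild-type and 8.42, 8.98 and 7.53 CPM in the mutant libraries, the 1 gene of this list without overlap between groups (log2 difference −0.79 ± 0.37, SE; edgeR adjusted p = 1.00). Over all tested genes, 4.54% lay below without overlap. The scaffold genes Shank1 (21.1 ± 8.13 and 13.8 ± 4.23 CPM) and Grip1 (38.1 ± 9.84 and 28.2 ± 7.05 CPM) overlapped.

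Genes of glutamate transport and supply were split, 5 above and 8 below 0 of 13 (median −0.26, 0 called). Slc1a1, a neuronal glutamate transporter, was at 10.9 ± 3.06 and 2.79 ± 3.57 CPM, without overlap (4.54% of all tested genes lay below in this way). Slc1a3, the radial glia and astrocyte transporter, was at 180 ± 71.5 and 272 ± 94.5 CPM. Of the G protein and phospholipase genes below Grm5, 10 of 11 were tested, 4 above and 6 below 0 (median −0.35, 0 called). Plcb3 was at 29.8 ± 7.31 and 19.4 ± 5.45 CPM, Prkca at 19.4 ± 4.06 and 13.7 ± 2.66 CPM, and Itpr2 at 2.41 ± 2.30 and 7.44 ± 7.25 CPM.

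Receptor genes for GABA, the inhibitory transmitter, had a median of −0.42, with 3 above and 10 below 0 of 13 tested (0 called). Gabbr1, a subunit of the metabotropic GABA receptor, was at 56.8 ± 12.9 and 41.5 ± 10.995 CPM. Gabra3 was at 7.60 ± 1.46 and 3.80 ± 2.58 CPM, without overlap (4.54% of all tested genes lay below in this way). A lower median was therefore found in the GABA list too, and the difference between the lists was not tested. The adenosine deaminase family genes Adar, Adarb1 and Adarb2 had fitted differences above 0 in 3 of 3, with 0 called. Adar was at 60.2 ± 7.53 and 70.3 ± 9.38 CPM and Adarb2 at 2.39 ± 2.92 and 4.68 ± 2.61 CPM. Adarb1, which edits the pore codon of Gria2 shown above, was at 5.55 ± 3.71 and 9.64 ± 5.57 CPM. Their groups overlapped.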

How the data were processed

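The authors deposited expected counts per gene for 6 libraries, with no scaling for depth. The submitters' processing notes name RSEM and mm10. Because RSEM splits ambiguous reads, 8.15% to 9.15% of the values in each library had fractions. This share is over all 24041 genes, those without a count included, and 14643 to 16364 genes per library had a count. The sources used here do not give the RSEM version, annotation or strand setting. Per the labels' protocols, cDNA came from picogram amounts of RNA (SMART-Seq low-input kit) without molecular identifiers, so reads are not independent molecules.

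Groups and replicate numbers came from sample titles. Counts were rounded, filtered with filterByExpr (14451 genes) and scaled with TMM (factors 0.972 to 1.02). Mutant was tested against wild-type in R 4.3.3 by edgeR 4.0.16, with group as only term, a two-sided quasi-likelihood F-test and robust spread estimates, adjusted by Benjamini-Hochberg over all tested genes (threshold 0.05). The SE of a log2 difference is its absolute value divided by the square root of the F statistic. The common biological coefficient of variation was 0.663. DESeq2 1.42.0, limma-voom (limma 3.58.1), other scalings and filters, a replicate block and omitted libraries were alternatives. Centred values are log2 CPM (prior count 2) minus the mean over libraries. Coordinates and lengths are from GENCODE M21, matched by symbol. It was not stated which annotation the counts used. Of each context list the 3 tested genes of smallest unadjusted p are named; 2 genes and 1 sequence are not reported here. The members and lists were chosen with earlier results of these data known. Of the listed genes, Shisa8 was not found by symbol or synonym. Other marker genes named were chosen after their values were seen.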

Additional observations from a re-analysis of the deposited data

How the results depend on the processing

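No member was called under any of the 15 alternatives run, and the number of members with a fitted level below wild-type stayed between 7 and 9. Over all tested genes, 0 were called except with DESeq2, which called 12 (9 higher; it gave no adjusted p for 876 genes). The signs of Gria1, Gria2, Gria3, Gria4, Grin2b and Grik5 held in all 15. The sign of Grin1 turned with limma-voom (0.28) and when wild-type replicate 3 and mutant replicate 1 were both left out (0.54), where Grin2a was at −1.72 and Grm5 at 1.40. Grin2a was not tested with the filter of 1 CPM in 3 libraries. With the replicate number as a block, Grin1 was at 0.21, Grin2a at −0.50 and Grik2 at 0.015, all turned in sign, the members' median was −0.50, and 307 genes stood at an unadjusted p under 0.05, against 489. The labels do not say whether same-numbered libraries are paired, though the deposited column names carry the same numbers in both groups. Deviations of same-numbered libraries correlated across genes at 0.0543, 0.0609 and −0.256. Those of differently numbered libraries correlated at −0.255 to 0.257. With 3 libraries per group these values cannot decide whether the libraries are paired. With 1 library left out in turn, the median of the members ran from −0.84 to −0.16, Grin1 from −1.03 to 0.86, Grin2a from −1.23 to 4.399, Grik2 from −0.19 to 0.29 and Grm5 from −0.35 to 1.12. The cause was not tested. Per kilobase of the longest transcript, Gria2 was at 20.5, Grin1 at 0.819, Gria3 at 2.499, Grik2 at 6.99 and Grik5 at 14.6 CPM, higher because that length is shorter than merged exons. The SE was larger than the log2 difference for Gria1, Gria4, Grin1, Grin2a, Grik2, Grik5 and Grm5, and smaller for Gria2, Gria3 and Grin2b. Since the SE was derived from the test statistic, this restates the edgeR test and is no separate check.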
